A study of Mus musculus with 4 samples.

Results

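Meiosis and the shaping of spermatids are the stages of spermatogenesis that follow the spermatogonia, and 41 genes known for these stages were followed in cultured mouse spermatogonial stem cells (SSCs), the testis germ cells that renew themselves. The genes were chosen by name: 21 act in meiotic prophase or in spermatocytes and 20 act in spermatids, out of 27729 gene names on the array. Every one of the 41 had at least 1 probe. The cells came from C57/BL6 x DBA/2 F1 mice at day 5. Their medium was serum-free and held GDNF (40 ng/ml), a growth factor for SSC self-renewal, in all samples. In the -F+S samples FGF2 had been withdrawn and SU5402, which blocks the kinase of FGF receptors, had been added for 12 h. The normal-culture samples had FGF2 at 5 ng/ml and no inhibitor. The sources used here give neither the dose of SU5402 nor the presence or absence of feeder cells. The comparison asks how the transcripts of later germ cell stages differ between the -F+S and the normal-culture samples.

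In meiosis, sister chromatids are held by a meiotic form of cohesin, homologous chromosomes are joined along their length by the synaptonemal complex, and programmed DNA breaks are repaired as crossovers. After the meiotic divisions, round spermatids build the acrosome and the tail and replace histones first by transition proteins and then by protamines. Both programmes are known for testis-specific transcription, and transcripts of some meiotic genes are known to be present already in spermatogonia.

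Each of 4 two-colour arrays held 1 -F+S sample (Cy3, green) and 1 normal-culture sample (Cy5, red), described by the submitters as 4 biological replicates of each. Of 41174 probes, 26613 to 28496 per array gave a signal well above background in the -F+S channel, and 25533 to 27891 in the normal-culture channel. Between arrays, Pearson's r of the log2 ratios over 18454 genes was 0.907 to 0.948, and genes are not independent replicates. Green always held -F+S RNA, so the treatment and an effect of the dye on a given gene cannot be told apart. These are bulk samples, so fewer cells of a type and less RNA per cell cannot be told apart either. Of 11 measured spermatogonial markers, all were well above background, among them Ddx4 and Dazl, which mark germ cells, and Gfra1 and Ret, which form the GDNF receptor.

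Several of the probes behind the results cross exon junctions, so that they match spliced RNA and not the gene's genomic sequence in 1 piece. Examples are shown for the 2 meiosis genes that rose, Sycp3 and Sycp1, for Rec8, for both MutS homologues and for the protamine gene whose probes disagreed. Each is the sequence of the deposited probe, 5′ to 3′, 60 bases long, with its mm9 span.
Sycp3, chr10:87932348-87935438: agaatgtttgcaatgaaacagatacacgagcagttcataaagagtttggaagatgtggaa
Sycp1, chr3:102657397-102658068: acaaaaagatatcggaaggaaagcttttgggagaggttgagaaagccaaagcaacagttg
Rec8, chr14:56243204-56243588: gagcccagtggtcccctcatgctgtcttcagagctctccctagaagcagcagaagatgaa
Msh4, chr3:153523938-153526359: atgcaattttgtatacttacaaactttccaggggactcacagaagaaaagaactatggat
Msh5, first probe, chr17:35165774-35166176: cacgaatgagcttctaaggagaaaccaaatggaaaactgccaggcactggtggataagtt
Msh5, second probe, chr17:35181367-35182101: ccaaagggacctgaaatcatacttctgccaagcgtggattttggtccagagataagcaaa
Prm1, chr16:10796597-10796748: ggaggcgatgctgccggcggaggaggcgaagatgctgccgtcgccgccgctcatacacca
G and C made up 70% of the bases of the Prm1 probe and 35% of those of the Msh4 probe.

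Most of these transcripts were measured in both cultures, and most differences were small. For testing, a gene needed a probe that exceeded background clearly on 3 or more arrays in 1 of the channels, and 35 of the 41 genes had it: 20 of 21 meiosis genes and 15 of 20 spermatid genes. A probe well above background on at least 3 arrays was found for 35 genes in the -F+S samples and for 35 in normal culture. On all 4 arrays it was found for 33 genes in the -F+S samples and for 34 in normal culture. The 6 genes that were not kept were the hotspot methyltransferase gene Prdm9, the acrosomal gene Acrv1, the tail genes Odf1 and Catsper1, the kinase gene Tssk2 and the sperm glycolysis gene Pgk2. Prdm9, Catsper1 and Tssk2 were not well above background on any array in either channel. Acrv1 passed on 0 arrays in -F+S and on 1 in normal culture, Odf1 on 1 in each, and Pgk2 on 2 in -F+S and on 0 in normal culture. Among all genes, 63.8% to 68.3% were well above background per array in the -F+S samples, and 61.9% to 67.6% in normal culture.

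Across the 35 genes kept, 5 were called higher and 13 were called lower in -F+S, by limma with an adjusted p under 0.05, and 17 were not called. Among all 18454 genes tested, 37.5% were called higher and 30.9% lower, so a call by itself was common in these data. The genes called higher were 14.3% of the 35 and those called lower 37.1%. With the processing used for these calls, none of the 35 changed by 2-fold or more. Of all genes, 11.7% were at least 2-fold higher and 1.66% at least 2-fold lower. Other settings took Msh5 past 2-fold lower, at -1.01 with a background offset of 16 and -1.29 with the scanner's log ratios. Izumo1 was at -1.01 with the scanner's log ratios. The shares of all genes past 2-fold are not given for those settings. The 4 -F+S levels and the 4 normal-culture levels did not overlap for 16 of the 35 genes, or 45.7%, against 61.1% of all genes. The median log2 ratio of the 35 genes was -0.17, and that of all genes 0.02. The 2 stages differed in their counts: 11 of the 20 meiosis genes were lower and 2 were higher (median -0.27), while 2 of the 15 spermatid genes were lower and 3 were higher (median -0.08). The difference between the stages was not tested. Several of the spermatid genes, such as Izumo1, Akap4 and Prm2, lay near background, and the processing shrinks the ratios of dim probes. With the scanner's own log ratios, which are not centred, 22 of the 35 genes were lower and 3 higher. Spermatid genes called lower there but not with loess were Prm2, Tnp1, Acr, Akap4, Tssk6 and Hspa1l. The meiosis genes gained in the same way were Hormad1, Tex12 and Mlh3, so the stages differed less in their counts there. Under that setting the median of all genes was -0.12, and 41.6% of the calls over all genes were rises, compared with 54.8% under loess. Relative to the median of all genes, the median of the 35 lay at -0.22 there, and at -0.19 with loess.

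**Figure D1:**
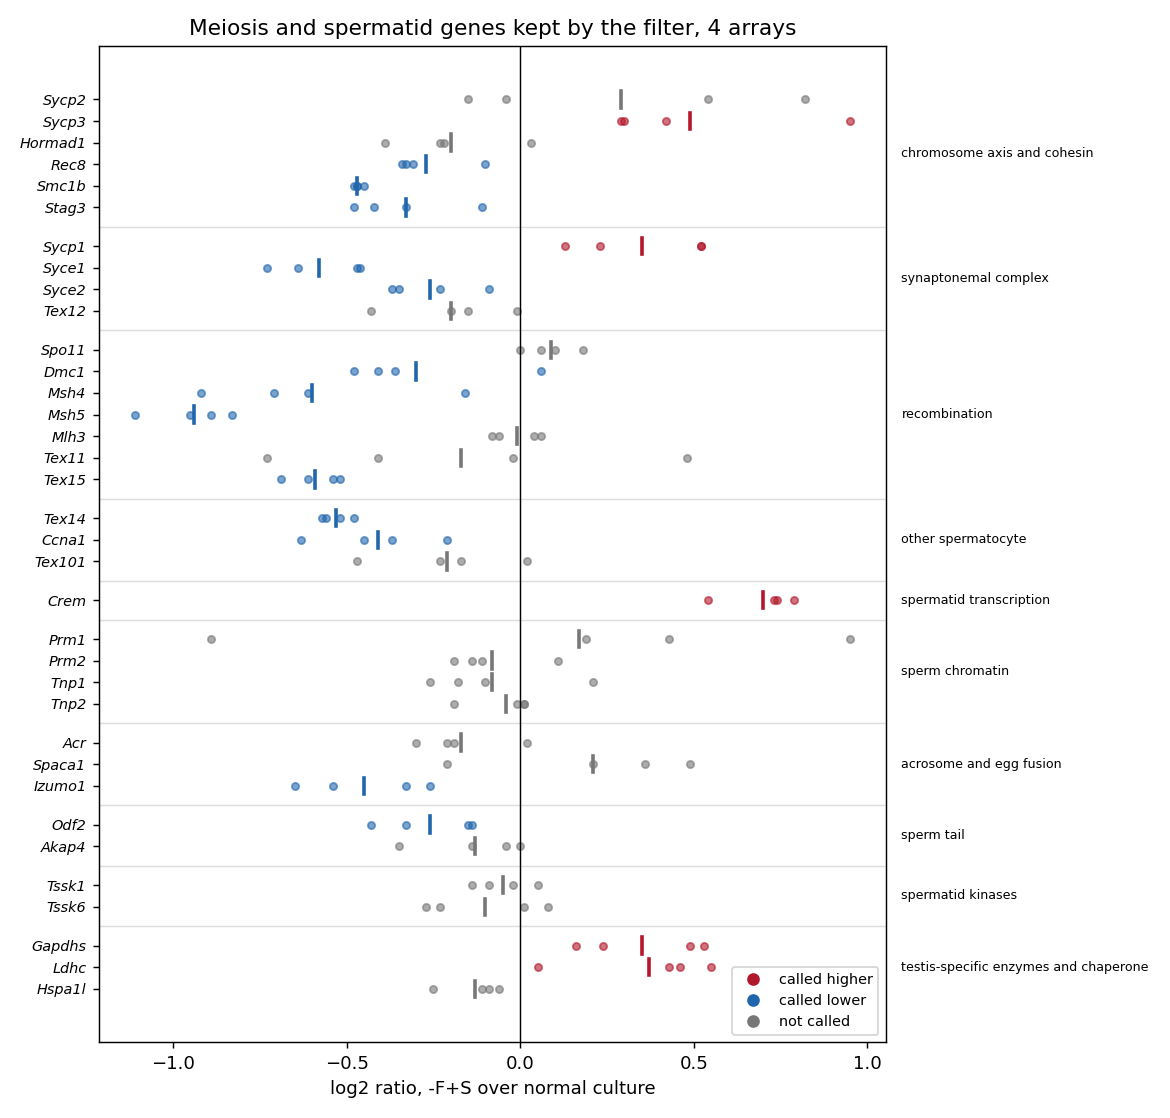
Log2 ratios of -F+S over normal culture (horizontal axis) for the 35 genes kept, ordered by role. Each point is 1 of 4 arrays, the vertical tick is the mean, and red, blue and grey stand for genes called higher, called lower and not called. Msh5 lies farthest to the left with a mean of -0.94, Crem farthest to the right with a mean of 0.70, and Prm1 has the widest spread, with arrays between -0.89 and 0.95.

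Of the 6 chromosome axis and cohesin genes, the cohesin genes Rec8, Smc1b and Stag3 fell and the axis gene Sycp3 rose, while the axis genes Sycp2 and Hormad1 were not called. Levels are given here as the normalized log2 signal of a probe in each channel, arrays 1 to 4 in order, and can be compared between samples for the same probe only. Smc1b, the meiotic SMC subunit of cohesin, had levels of 15.18, 15.23, 15.16 and 15.22 in the -F+S samples, against 15.63, 15.71, 15.64 and 15.69 in normal culture. The groups did not overlap, and every array gave nearly the same log2 ratio, between -0.48 and -0.45. Its mean log2 ratio was -0.47 ± 0.065 (SE of the limma fit, n = 4 arrays), 1.38-fold lower, with an adjusted p of 0.000164. Stag3, the meiotic STAG subunit, had levels of 14.66, 14.78, 14.57 and 14.77 in -F+S, against 15.08, 15.10, 15.05 and 14.88 in normal culture. All -F+S levels were below all normal-culture levels, with array 4 giving the smallest step. The log2 ratio of Stag3 was -0.33 ± 0.080 (adjusted p = 0.00453).

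Rec8, the meiotic kleisin that closes the cohesin ring, had levels of 15.66, 15.49, 15.50 and 15.46 in -F+S, against 15.75, 15.82, 15.81 and 15.80 in normal culture. Array 1 showed the smallest step and arrays 2 to 4 agreed closely. By this probe the log2 ratio was -0.27 ± 0.073 (adjusted p = 0.00865). The second Rec8 probe, the exon-junction sequence shown above, had levels of 12.40, 12.61, 12.62 and 12.59 in -F+S, against 13.20, 13.29, 13.60 and 13.33 in normal culture. Its log2 ratio of -0.80 was a larger fall than that of the first probe, and was also called (adjusted p = 1.75e-05 over probes). For the first probe the call was lost when a trend of the ratio on the probe's base composition was removed (-0.10, adjusted p = 0.229, in a range over settings of 1.75e-06 to 0.229). Centring each array on its median in place of loess gave ratios of -0.61 for Rec8, -0.78 for Smc1b and -0.56 for Stag3.

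Sycp3, which with Sycp2 builds the axial elements, had levels of 12.41, 12.37, 12.43 and 12.37 in -F+S, against 12.12, 12.07, 11.48 and 11.95 in normal culture. The -F+S levels lay within a narrow range, and the spread of the ratio came from the normal-culture samples, of which that on array 3 was lowest. Sycp3 had a log2 ratio of 0.49 ± 0.11, 1.41-fold higher (adjusted p = 0.0034), and with the scanner's log ratios it was 0.32 (adjusted p = 0.0494, in a range over settings of 8.8e-05 to 0.0497). Sycp2 had levels of 10.43, 10.38, 10.31 and 10.40 in -F+S, against 10.47, 10.53, 9.49 and 9.86 in normal culture, with the same array lowest in normal culture. Its log2 ratio of 0.29 ± 0.15 was not called (adjusted p = 0.111), and was 0.44 and called without array 2. The HORMA-domain gene Hormad1, whose protein marks unsynapsed axes, had a log2 ratio of -0.20 ± 0.082 (adjusted p = 0.0509). Hormad1 was called in 6 of 15 alternative settings, among them without array 3 (-0.28) and with the scanner's log ratios (-0.42).

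In the synaptonemal complex, 1 of 4 genes rose and 2 fell. Sycp1, the transverse filament that bridges the homologues, had levels of 13.24, 13.02, 13.29 and 12.93 in -F+S, against 12.72, 12.80, 12.77 and 12.81 in normal culture. Its -F+S levels were all above those of normal culture, by a narrow margin on array 4. Its rise was a log2 ratio of 0.35 ± 0.087, 1.27-fold higher (adjusted p = 0.00582). It was 0.18 and not called with the scanner's log ratios (adjusted p = 0.131, in a range over settings of 0.00386 to 0.132). Syce1, a central element protein, had levels of 14.18, 14.26, 14.19 and 14.31 in -F+S, against 14.64, 14.90, 14.92 and 14.78 in normal culture. The 2 groups were well apart, and the log2 ratio was -0.58 ± 0.075, 1.49-fold lower (adjusted p = 0.000109).

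Syce2, a central element protein that acts with Tex12, had levels of 15.48, 15.61, 15.58 and 15.47 in -F+S, against 15.85, 15.85, 15.67 and 15.83 in normal culture. Array 3 showed a step of only -0.09, and the other arrays lay between -0.37 and -0.23. For Syce2 the log2 ratio was -0.26 ± 0.075 (adjusted p = 0.0116). It was not called without array 1 (-0.23) or with median-centred processed signals (-0.20), and was -0.60 when arrays were centred on their medians. Tex12 had a log2 ratio of -0.20 ± 0.081, which missed the threshold (adjusted p = 0.0552). It was called in 7 of 15 alternative settings, among them without array 3 (-0.26) and with the scanner's log ratios (-0.34).

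Recombination genes held the largest falls of the whole group, and none of them was called higher by its brightest probe. Msh5, which forms a clamp with Msh4 on recombination intermediates, had levels of 8.83, 9.16, 9.0 and 9.14 in -F+S, against 9.94, 9.99, 9.95 and 10.04 in normal culture. The groups were separated by more than the whole spread within either. Msh5 had a log2 ratio of -0.94 ± 0.073, 1.92-fold lower (adjusted p = 3.55e-06), and -1.29 with the scanner's log ratios. The second Msh5 probe shown above, toward the other end of the gene, had levels of 8.23, 8.46, 8.28 and 8.47 in -F+S, against 8.78, 9.14, 9.17 and 9.05 in normal culture. Its log2 ratio was -0.68 and was also called, and a further Msh5 probe was not well above background on any array. Msh4 had levels of 9.06, 8.88, 8.73 and 8.87 in -F+S, against 9.67, 9.80, 9.44 and 9.03 in normal culture. The ranges touched, because normal culture on array 4 lay at the -F+S level of array 1. The log2 ratio of Msh4 was -0.60 ± 0.11, 1.52-fold lower (adjusted p = 0.00111), and -0.93 with the scanner's log ratios.

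Tex15, needed for loading recombinases onto meiotic DNA breaks, had levels of 13.24, 13.01, 13.12 and 13.03 in -F+S, against 13.78, 13.70, 13.73 and 13.55 in normal culture. All arrays gave a similar step, and the log2 ratio was -0.59 ± 0.068, 1.5-fold lower (adjusted p = 5.29e-05). Dmc1, the meiotic recombinase that carries out strand exchange, had levels of 8.82, 9.12, 8.96 and 9.13 in -F+S, against 9.29, 9.06, 9.32 and 9.54 in normal culture. Array 2 went the other way, so the groups overlapped. The log2 ratio of -0.30 ± 0.095 was called (adjusted p = 0.0192), but not without array 1 (-0.24), array 3 (-0.28) or array 4 (-0.26), nor with the base composition trend removed (-0.23). With the scanner's log ratios the Dmc1 ratio was -0.58.

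Spo11, the enzyme that makes the breaks, was not called with either of its kept probes, at log2 ratios of 0.09 and -0.17. Tex11, an X-linked crossover gene, had levels of 11.01, 11.12, 10.96 and 11.21 in -F+S, against 11.42, 11.85, 10.98 and 10.73 in normal culture. The arrays disagreed in direction, and the log2 ratio of -0.17 ± 0.16 was not called (adjusted p = 0.378). Without array 4 the Tex11 ratio was -0.39 and called. Mlh3, which acts in the formation of crossovers, had levels of 10, 9.99, 9.85 and 9.96 in -F+S, against 9.94, 9.96, 9.91 and 10.04 in normal culture by its brightest probe, with a log2 ratio of -0.01 ± 0.068 (adjusted p = 0.893). Its other probe, at chr12:86609682-86609741, had levels of 8.88, 8.34, 8.97 and 8.23 in -F+S, against 8.04, 7.89, 8.18 and 8.09 in normal culture. That probe was called higher, with a log2 ratio of 0.55 (adjusted p = 0.00236 over probes), so the probes of Mlh3 disagreed. Of the 7 recombination genes kept, 4 fell and 3 were not called.

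Of the other spermatocyte genes, 2 of 3 fell. Tex14, needed for the bridges that join dividing germ cells, had levels of 13.49, 13.54, 13.44 and 13.45 in -F+S, against 14.05, 14.06, 14.00 and 13.92 in normal culture. The groups did not overlap, and the log2 ratio was -0.53 ± 0.066, 1.44-fold lower (adjusted p = 7.92e-05). A second Tex14 probe gave -0.23 and was called too. Ccna1, the cyclin A1 of late spermatocytes, had levels of 8.20, 8.12, 8.13 and 8.06 in -F+S, against 8.42, 8.57, 8.76 and 8.43 in normal culture. The Ccna1 groups were apart on all arrays, with a log2 ratio of -0.41 ± 0.082 (adjusted p = 0.00153), and -0.75 with the scanner's log ratios. Tex101, a germ cell surface glycoprotein gene, had a log2 ratio of -0.21 ± 0.087 and was not called (adjusted p = 0.0532). It was called without array 3 (-0.29) and when arrays were centred on their medians (-0.60).

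**Figure D2:**
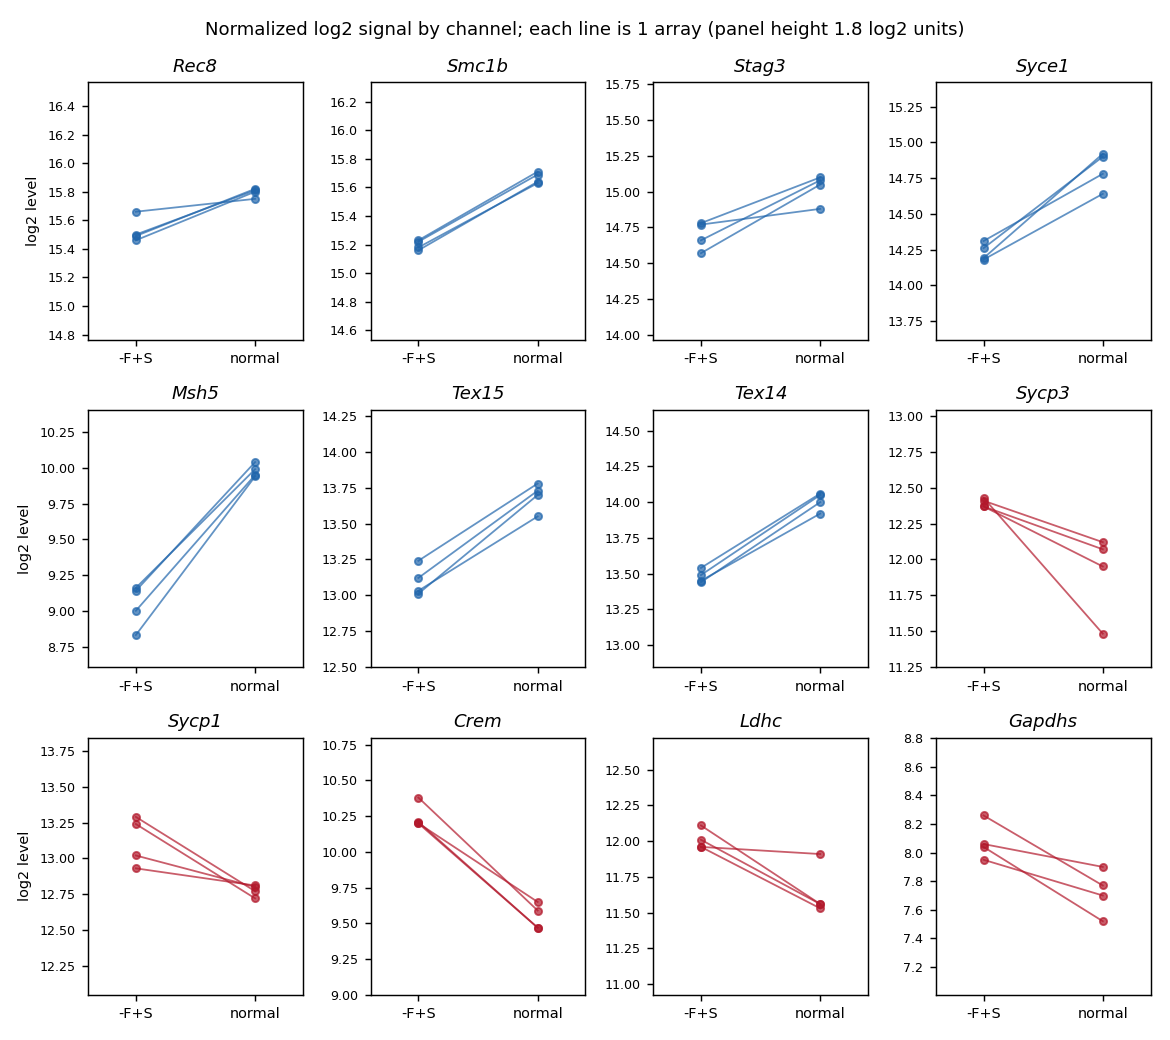
Normalized log2 level (vertical axis, 1.8 log2 units in each panel) in -F+S (left) and normal culture (right), with 1 line per array, for 12 genes that were called, blue where lower and red where higher in -F+S. The Msh5 lines run from 8.83 to 9.16 in -F+S and from 9.94 to 10.04 in normal culture, and for Sycp3 the normal-culture point of array 3 lies lowest at 11.48.

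Of the 15 spermatid genes kept, 10 were not called, and the largest rise among the 35 genes was that of Crem. Crem encodes CREM, the transcription factor known to switch on genes of round spermatids, and also encodes short repressor forms that are induced by cyclic AMP in other cells. Its brightest probe had levels of 10.38, 10.20, 10.21 and 10.20 in -F+S, against 9.59, 9.65, 9.47 and 9.47 in normal culture. The groups were well separated, and the log2 ratio was 0.70 ± 0.072, 1.62-fold higher (adjusted p = 2.29e-05). Crem had 6 kept probes. The 5 probes that lie together between positions 3267049 and 3268046 of chromosome 18 (mm9) were all called higher, with log2 ratios between 0.27 and 0.74. The remaining probe, which spans an intron between positions 3295393 and 3299197, had a log2 ratio of 0.12 and was not called. The probes therefore differed in size, and which Crem forms they detect was not tested.

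**Figure D3:**
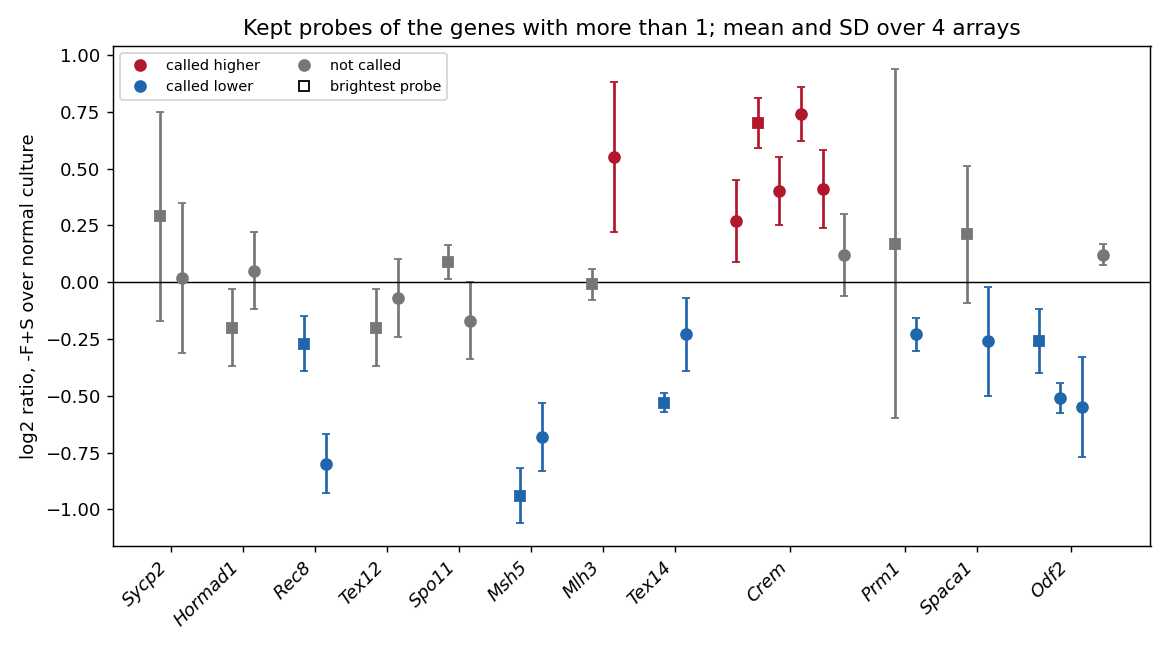
Mean log2 ratio of -F+S over normal culture with SD over 4 arrays (vertical axis) for each kept probe of the 12 genes with several kept probes. Squares are the probes that stand for the gene, circles the others, and red, blue and grey mark probes called higher, lower and not called over all kept probes. The 2 Rec8 probes lie at -0.27 and -0.80, the 2 Mlh3 probes at -0.01 and 0.55, and the 6 Crem probes between 0.12 and 0.74.

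None of the 4 sperm chromatin genes was called by its brightest probe. The protamine gene Prm1 had levels of 9.67, 8.77, 9.73 and 8.99 in -F+S, against 8.72, 8.34, 9.54 and 9.88 in normal culture. The arrays ran from a log2 ratio of 0.95 to -0.89, and the mean of 0.17 ± 0.23 was far inside that spread (adjusted p = 0.539). Without array 4 the ratio was 0.52 and called. The exon-junction Prm1 probe shown above was steadier, with levels of 8.23, 8.25, 8.03 and 7.96 in -F+S, against 8.43, 8.40, 8.33 and 8.24 in normal culture. That probe was lower on all 4 arrays, with a log2 ratio of -0.23, and was called (adjusted p = 0.0154 over probes). The probes of Prm1 thus disagreed in direction, and no direction is given for the gene. Prm2, the other protamine, had levels of 7.38, 7.37, 7.45 and 7.34 in -F+S, against 7.52, 7.47, 7.35 and 7.53 in normal culture. Its log2 ratio was -0.08 ± 0.075, and the transition protein genes Tnp1 and Tnp2 had ratios of -0.08 ± 0.088 and -0.04 ± 0.070. With the scanner's uncentred log ratios, Prm2 (-0.36) and Tnp1 (-0.29) were called lower, and Prm1 and Tnp2 were not called. Removing the base composition trend gave Prm2 0.08, Tnp1 0.09 and Tnp2 0.15, and none of these was called. Prm1, Prm2 and Tnp2 are neighbours on chromosome 16, where their probes lie between positions 10788572 and 10796748 in mm9.

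Among the acrosome and egg fusion genes, Izumo1 fell. Izumo1, the sperm protein that binds its receptor on the egg, had levels of 7.17, 7.16, 7.06 and 7.10 in -F+S, against 7.50, 7.70, 7.71 and 7.37 in normal culture. The groups did not overlap, although the probe was dim and was well above background on 3 of the 4 -F+S arrays. The log2 ratio was -0.45 ± 0.083, 1.36-fold lower (adjusted p = 0.00107). The scanner's log ratios, which add no offset to dim signals, gave -1.01. Spaca1, needed for acrosome shape, had levels of 9.70, 9.51, 9.47 and 9.61 in -F+S, against 9.49, 9.71, 8.98 and 9.25 in normal culture, with array 2 going against the other arrays. Its log2 ratio of 0.21 ± 0.11 was not called (adjusted p = 0.107) and was 0.35 and called without array 2. A second Spaca1 probe, across an exon junction, gave -0.26 and was called lower (adjusted p = 0.0386 over probes), so its probes disagreed as well. Acr, the acrosomal protease acrosin, had a log2 ratio of -0.17 ± 0.076 (adjusted p = 0.0737), and was called without array 1 (-0.23) and with the scanner's log ratios (-0.34).

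Of the tail genes, Odf2 fell and Akap4 was not called. Odf2, an outer dense fibre protein that is also a centrosome component in other cells, had levels of 13.87, 13.89, 13.81 and 13.84 in -F+S, against 14.00, 14.03, 14.14 and 14.27 in normal culture. The -F+S levels were all lower, with smaller steps on arrays 1 and 2, and the log2 ratio was -0.26 ± 0.077 (adjusted p = 0.0137). Without array 4 it was -0.20 and not called, and with the scanner's log ratios -0.43. The other Odf2 probes well above background in both channels gave -0.51 and -0.55, and both were called lower. A last Odf2 probe was well above background on 3 of the 4 -F+S arrays and on none in normal culture. That probe was dim, and its log2 ratio of 0.12 was not called (adjusted p = 0.154 over probes). Akap4, the X-linked anchoring protein of the fibrous sheath, had levels of 7.14, 7.07, 7.49 and 7.38 in -F+S, against 7.28, 7.42, 7.49 and 7.42 in normal culture. The ranges of Akap4 overlapped, and its log2 ratio was -0.13 ± 0.079 (adjusted p = 0.163).

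The spermatid kinase genes Tssk1 and Tssk6 had log2 ratios of -0.05 ± 0.069 and -0.10 ± 0.081, and neither was called. Tssk6 had levels of 8.67, 8.72, 8.83 and 8.61 in -F+S, against 8.59, 8.70, 9.06 and 8.87 in normal culture, so that its groups overlapped. Tssk1 levels were between 7.55 and 7.68 in -F+S and between 7.57 and 7.75 in normal culture.

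The testis-specific metabolic enzymes rose where they were measured. Ldhc, the lactate dehydrogenase of germ cells, had levels of 12.01, 12.11, 11.96 and 11.96 in -F+S, against 11.56, 11.56, 11.53 and 11.91 in normal culture. Arrays 1 to 3 were alike and array 4 showed almost no step. The log2 ratio was 0.37 ± 0.090, 1.30-fold higher (adjusted p = 0.00493), and was 0.18 and not called with the scanner's log ratios (adjusted p = 0.127, in a range over settings of 0.000857 to 0.127). Gapdhs, the sperm form of the glycolytic enzyme GAPDH, had levels of 8.06, 7.95, 8.04 and 8.26 in -F+S, against 7.90, 7.70, 7.52 and 7.77 in normal culture. The groups were apart by a narrow margin, and the log2 ratio was 0.35 ± 0.083, 1.28-fold higher (adjusted p = 0.00413). Whether this probe also binds the transcript of the related housekeeping gene was not tested. The other Gapdhs probe was well above background on only 1 array in each channel and was not kept, with a log2 ratio of -0.06. Hspa1l, a chaperone gene of spermatids, had levels of 7.66, 7.72, 7.89 and 7.78 in -F+S, against 7.72, 7.83, 8.14 and 7.88 in normal culture, and was not called (log2 ratio -0.13 ± 0.069, adjusted p = 0.124).

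The 250 bases before the annotated start were searched, on both strands, for 4 short sequences known from germ cell genes. Of the 41 genes, 34 were matched in the RefSeq promoter table (GRCm38.p6), 18 of them meiosis and 16 spermatid genes. Acr, Tex15, Spo11, Crem, Odf1, Tex11 and Catsper1 were not matched. A gene was counted if any of its annotated starts had the sequence, whereas the percentages below count single promoters. Genes with several starts had more chances, so the counts and percentages are not like measures. The E-box CACGTG was found before 6 meiosis genes, which were Hormad1, Stag3, Syce2, Sycp1, Sycp3 and Tex12, and before none of the spermatid genes, and it occurred in 6.02% of the 32851 promoters of the table. TTTCCCGC, known as a binding sequence of E2F-family factors, was found before Msh5, Syce2, Sycp3 and Tex14 and occurred in 0.895% of all promoters. The cyclic AMP response element TGACGTCA was found before Izumo1 (1.55% of all promoters), and CCCTCAG before Prdm9 (6.41%). These motifs did not overlap each other in the sequences shown. The promoters with TTTCCCGC or its reverse complement are shown because genes that carry it moved in both directions: Msh5, Syce2 and Tex14 were lower and Sycp3 was higher. Capitals mark TTTCCCGC and CACGTG on either strand, each promoter is read 5′ to 3′ on the strand of its gene, and for Syce2 the second of its annotated starts is shown.
Msh5, chr17:35046623-35046872, minus strand: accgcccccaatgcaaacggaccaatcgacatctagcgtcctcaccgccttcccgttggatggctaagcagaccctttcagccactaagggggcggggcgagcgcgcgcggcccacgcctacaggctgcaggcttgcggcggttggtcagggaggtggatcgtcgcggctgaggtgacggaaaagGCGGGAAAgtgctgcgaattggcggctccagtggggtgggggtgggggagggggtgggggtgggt
Syce2, chr8:84872008-84872257, plus strand: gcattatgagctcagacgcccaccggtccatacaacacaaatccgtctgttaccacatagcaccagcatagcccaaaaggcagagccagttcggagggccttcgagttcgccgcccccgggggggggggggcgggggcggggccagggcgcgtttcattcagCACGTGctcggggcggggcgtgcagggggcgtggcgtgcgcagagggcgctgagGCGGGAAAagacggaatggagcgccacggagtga
Tex14, chr11:87404815-87405064, plus strand: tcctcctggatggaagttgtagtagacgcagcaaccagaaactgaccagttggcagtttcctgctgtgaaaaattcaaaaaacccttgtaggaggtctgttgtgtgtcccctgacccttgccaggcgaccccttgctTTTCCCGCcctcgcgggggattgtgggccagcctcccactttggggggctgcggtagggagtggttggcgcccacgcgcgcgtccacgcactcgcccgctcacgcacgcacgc
Sycp3, chr10:88459337-88459586, plus strand: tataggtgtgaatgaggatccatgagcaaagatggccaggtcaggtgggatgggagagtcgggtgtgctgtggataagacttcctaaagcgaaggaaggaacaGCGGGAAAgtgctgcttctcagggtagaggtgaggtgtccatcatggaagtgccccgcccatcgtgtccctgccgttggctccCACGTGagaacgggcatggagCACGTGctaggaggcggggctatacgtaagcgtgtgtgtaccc
The E-box stands 43 and 64 bases before the start of Sycp3 and 88 bases before that of Syce2, counted from its first base. Of the 6 genes with an E-box, Sycp1 and Sycp3 were higher, Stag3 and Syce2 were lower, and Hormad1 and Tex12 were not called. A match describes the letters only.

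Other genes of both stages, from lists that do not include the 41, gave the setting. Of 36 other meiosis genes kept out of 40 listed, 21 were lower (58.3%) and 5 higher (13.9%) (median log2 ratio -0.30). The falls of the rule-named genes were led by Zcwpw1, a reader of the histone marks set by PRDM9, at -0.86 ± 0.096 (adjusted p = 4.07e-05), though its second probe gave 0.17. Rnf212, which stabilises crossover sites, fell by 0.83 (SE 0.080), Bub1b, a spindle checkpoint kinase, by 0.82 (SE 0.089) and Hormad2, an axis protein, by 0.67 (SE 0.068). The rises were those of the chaperone gene Hspa2 (0.84 ± 0.12), Meig1 (0.65 ± 0.077), the nuclear envelope gene Sun2 (0.63 ± 0.090) and Stra8 (0.52 ± 0.087). Stra8, the retinoic acid target that starts meiosis, was 1.43-fold higher with an adjusted p of 0.000542. When arrays were centred on their medians in place of loess, the Stra8 ratio was 0.25 and still called (adjusted p = 0.0335). These 4 genes rose while most of their list fell.

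Of 54 other spermatid genes listed, only 32 were kept, and of these 16 were lower (50%) and 6 higher (18.8%), and the median was -0.17. With the base composition trend removed 10 of them were lower and 7 higher, while 25 of the other meiosis genes were lower and 5 higher. The largest falls were those of Dkkl1, an acrosomal protein gene (-0.78 ± 0.088), Odf3b (-0.75 ± 0.076), the axonemal gene Spag16 (-0.64 ± 0.12) and Rfx2, a transcription factor of spermatids and ciliated cells (-0.64 ± 0.078). A second Spag16 probe gave 0.27. The largest rises were those of Cox6b2, a testis cytochrome c oxidase subunit gene, at 1.24 ± 0.074 and 2.35-fold, the tektin gene Tekt2 at 0.96 ± 0.078, Ropn1l at 0.60 ± 0.076 and Cmtm2a at 0.36 ± 0.065. The second probe of Cmtm2a gave 0.03. By these values Cox6b2 was the only one of these 8 past 2-fold. With the scanner's log ratios Odf3b (-1.24), Rfx2 (-1.09) and Spag16 (-1.08) were past 2-fold lower, and Cox6b2 was at 1.07.

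Markers of several cell types moved in the same comparison. Of the 11 spermatogonial markers measured, 6 were lower and 1, Stra8, was higher (median log2 ratio -0.33). Dazl and Stra8 stand in both this list and that of the other meiosis genes. The summed linear level of the spermatogonial markers was 274000 to 305000 in -F+S, against 355000 to 402000 in normal culture. All 10 Sertoli cell markers were higher, with a median of 2.10 and a sum of 488000 to 517000 in -F+S, against 112000 to 119000 in normal culture. Of 10 fibroblast markers 9 were higher, with a median of 1.44 and a sum of 1600000 to 1730000 in -F+S, against 601000 to 676000 in normal culture. All 10 macrophage markers were lower, with a median of -1.19 and a sum of 52600 to 65400 in -F+S, against 132000 to 157000 in normal culture. No marker of these 4 lists that had a probe was below background in both channels. The part of these shifts in the ratios of the meiosis and spermatid genes was not tested. The summed level of the 20 meiosis genes was 284000 to 293000 in -F+S, against 348000 to 369000 in normal culture. The sum of the 15 spermatid genes was 24300 to 25400 in -F+S and overlapped with the 24500 to 29500 of normal culture. The brightest probes weigh most in such sums, and among the spermatid genes these were Odf2, which fell, and Ldhc, which rose.

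**Figure D4:**
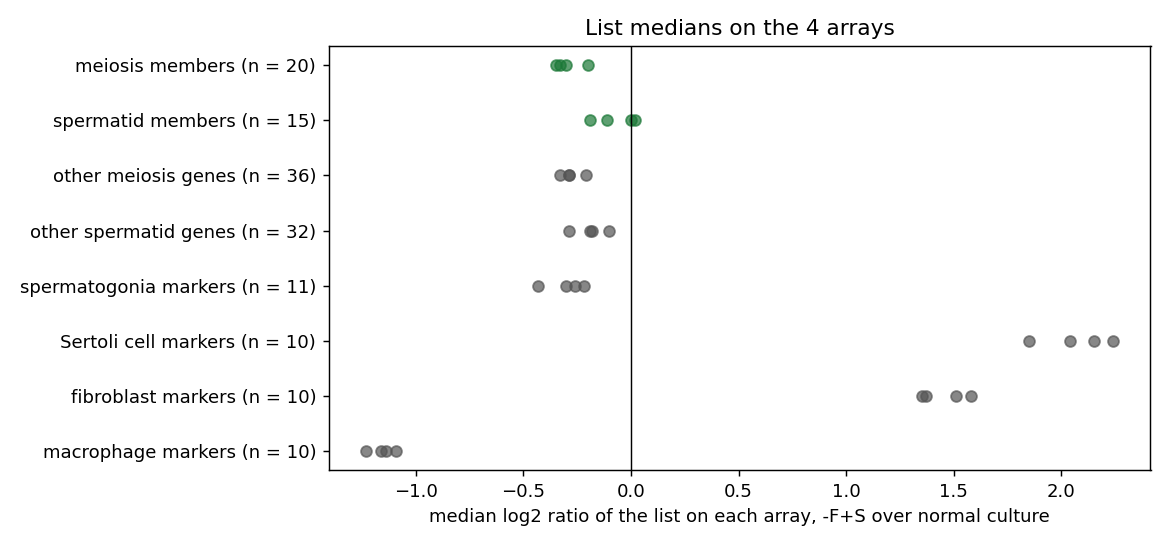
Median log2 ratio of each list (horizontal axis), -F+S over normal culture, with 1 point per array. The 20 meiosis genes lie between -0.35 and -0.20 and the 15 spermatid genes between -0.19 and 0.02, while the Sertoli cell markers lie between 1.85 and 2.24 and the macrophage markers between -1.23 and -1.09.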

How the data were processed

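RNA of 4 -F+S and 4 normal-culture samples was measured on 4 two-colour Agilent arrays. The members and gene lists were chosen with earlier results of these data known. The deposited spot intensity values are scanner output without further normalization; the software was Agilent Feature Extraction, version 10.5.1.1, as given in the submitters' processing notes. The scanner's LogRatio is log10 of red over green after the software's background subtraction and dye normalization, per the file headers. The authors' deposited series matrix holds log2 values. Over the 40929 probes spotted singly, 100% equalled log2 of green over red processed signal within 0.001, which is -F+S over normal culture with no centring, and its columns had medians of -0.26, 0.011, 0.11 and -0.058.

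Of 45018 spots per array, 1639 were controls, 141 to 171 were flagged and left out, and 0 were saturated. Mean signals were corrected by normexp (offset 50, which shrinks the ratios of dim probes) and ratios were normalized by loess within arrays, so they are relative to each array's central trend. Spots of a probe were averaged. Probes whose signal was well above background on 3 or more arrays in 1 channel were kept (27730 of 41174), and the brightest stood for its gene (18454 genes). Names were updated through RefSeq (GRCm38.p6) by accession for 25097 probes and by symbol for 7973, and 8104 kept the file's name. The 41 genes had 67 probes, of which 53 were kept. Probe coordinates are those of the files (mm9).

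The log2 ratio was tested against 0 in limma 3.58.1 (lmFit, eBayes, two-sided; R 4.3.3, data.table, version 1.17.8), with Benjamini-Hochberg adjustment over all genes, and adjusted p under 0.05 was called. Other probes of a gene were adjusted over all kept probes. Precision is limited by there being 4 arrays, between which the SD of a gene's ratio had a median of 0.15. Levels per channel are log2 values after loess and Aquantile scaling. The ratio of a probe dim on all arrays of a channel is limited by signal over background. Sequences and motifs were read with Python 3.11.15 and pandas 2.3.3, and figures drawn with matplotlib 3.10.9.

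All 41 genes are accounted for. Values per array are given for genes called, genes whose probes disagree and the leading genes of each role, and for the other lists the 4 largest rises and the 4 largest falls among called genes. Alternatives covered normalization, starting signal, background correction, the filter, the probe, base composition and each array left out. Zbtb16, Rad21l, Spata22, Rnf212b, Ankrd31 and H1fnt are listed but were not analysed here.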

Additional observations from a re-analysis of the deposited data

Results flagged for a closer look

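Among the 35 genes kept, 2 had an array far from the other 3 by Dixon's criterion at the 95% level, and chance alone marks about 1 in 20 such groups. Rec8 had a log2 ratio of -0.10 on array 1, whereas the others lay between -0.34 and -0.31, a gap of 0.873 of the whole range. Tnp2 had a log2 ratio of -0.19 on array 4, whereas the others lay between -0.01 and 0.01, a gap of 0.863 of the whole range.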

How the results depend on the processing

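Over 501 values of the 35 genes under the alternatives, 448 stayed on their side of the threshold without a called change of direction. Of these 448, 430 kept their sign, and 18, of genes not called in either setting, had the other sign or were 0 to 2 decimals. Another 12 lost a call, 37 gained one in the same direction and 4 changed sign with a call in 1 of the settings. With the scanner's log ratios, and with the series matrix as deposited, 3 rises and 22 falls were called among the 35 genes (median -0.34); those values are not centred. The second brightest probe existed for 12 of the 35 genes and 6608 genes in all, so that fewer genes could be called: 2481 genes were higher and 1780 lower, 2 and 6 of the 12, 3 and 4 of the other meiosis genes, and 3 and 1 of the other spermatid genes. That probe reversed Mlh3 (0.55), Prm1 (-0.23), Spaca1 (-0.26), Zcwpw1 (0.17) and Spag16 (0.27), and the mean of all kept probes reversed Mlh3 (0.27); the cause was not tested. With the base composition trend removed, 10 of the other spermatid genes were lower and 7 higher, and 25 of the other meiosis genes were lower and 5 higher. With each array left out in turn, 6448 to 6749 genes were higher and 4998 to 5388 lower, 5 to 7 and 12 to 15 of the 35 genes (median -0.18 to -0.13), 4 to 5 and 19 to 20 of the other meiosis genes, and 4 to 6 and 13 to 16 of the other spermatid genes. The test is itself paired within arrays, since each ratio is the difference between the 2 samples of 1 array, and no further replicate block could be added. Genes near background, such as Izumo1, Akap4 and Prm2, are limited by signal over background.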
